A study of Mus musculus with 9 samples.

Results

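Villus enterocyte absorption and digestion genes are 37 genes of the absorptive cell that lines the intestinal villus. They were taken by matching the NCBI mouse gene number of each named gene to the deposited expression table, and all 37 were found among its 18220 rows. Enterocytes are born in the crypt, leave the cell cycle as they migrate onto the villus, and switch on the genes for a brush border of digestive enzymes and transporters. Dietary fat is taken up, re-esterified and packed with apolipoproteins into chylomicrons, while sugars, peptides and amino acids are cut at the cell surface and carried across it. These genes mark mature cells above the crypt, and low levels of several of them are also seen in crypt cells that begin to differentiate.

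RNA was sequenced from the ileal stem cell niche, the crypt base, collected by laser microdissection. The 9 libraries came from 3 groups of 3 samples, all with the genotype given as wild type. SAMP 25 wk were SAMP/YitFc mice aged 25 weeks with severe Crohn's-like ileitis, SAMP 5 wk were SAMP/YitFc mice aged 5 weeks without inflammation, and AKR 25 wk were AKR mice aged 25 weeks without inflammation. SAMP/YitFc is an inbred strain that develops ileitis on its own, and AKR is the strain used as its control. The 2 groups of 25 weeks differ in strain and disease together, and the 2 SAMP groups differ in age and disease together, so within each pair these factors cannot be told apart. The measurements were FPKM, fragments per kilobase of transcript scaled to the mapped fragments of the library, which is a level per length and can be compared between genes. Between libraries it is a relative level, which also depends on how much of a library its most abundant genes hold. The main fit applied no further scaling. In bulk samples of this kind, fewer cells of a type and less RNA per cell cannot be told apart.

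Crypt-base genes were abundant in all 9 libraries, with Olfm4, a stem cell marker, at 543 to 683 FPKM in SAMP 25 wk, at 832 to 1039 in SAMP 5 wk, at 195 to 513 in AKR 25 wk, and at 412 and 513 there without replicate 2. Sequencing depth, as estimated from the smallest steps of the FPKM scale, came to between 7000000 and 10260000 reads, and levels near 1 FPKM rest on few of them. AKR 25 wk replicate 2 stood apart. Its summed FPKM over 12 stem cell markers was 369, against 718 and 827 in the other AKR libraries, and over 10 Paneth cell markers 23020 against 40420 and 53399. AKR 25 wk values can be read with and without that library throughout. SAMP 25 wk replicate 3 was at 177 FPKM for Xist and 0.14 for the Y-linked Eif2s3y, against 0.21 to 1.32 and 14.5 to 26.97 in the other 8 libraries, and the labels do not give the sex of the mice.

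Defining genes of the mature villus enterocyte were high in a single library. Apoa1, the main protein of high-density lipoprotein, Alpi, intestinal alkaline phosphatase, and Sis, sucrase-isomaltase, are defining markers of this cell, and their summed FPKM was 1542 in AKR 25 wk replicate 2. In the other 8 libraries the sum was 4.88 to 9.34 in SAMP 25 wk, 2.56 to 27.7 in SAMP 5 wk, and 9.08 and 19.6 in AKR 25 wk. The name of the gene set fits AKR 25 wk replicate 2, while the other libraries carried low levels of its defining genes and high levels of a few members. All 37 members together made up 1.34% of the FPKM of AKR 25 wk replicate 2, against 0.0625% to 0.196% in the others. Of the 37 members, 33 had a mean of at least 1 FPKM over the 9 libraries and entered the tests. Lct, Cyp3a11, Slc2a2 and Slc2a5 did not. Another 8 of the 33 (Alpi, Apoa4, Apoc3, Treh, Mme, Slc15a1, Slc6a19 and Ggt1) passed that filter only through AKR 25 wk replicate 2, leaving 25 members with a mean of at least 1 FPKM in the other 8. Among these 25, Fabp1 passed it only through SAMP 25 wk, the group where it was high, with at most 0.65 FPKM in any other library.

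**Figure D1:**
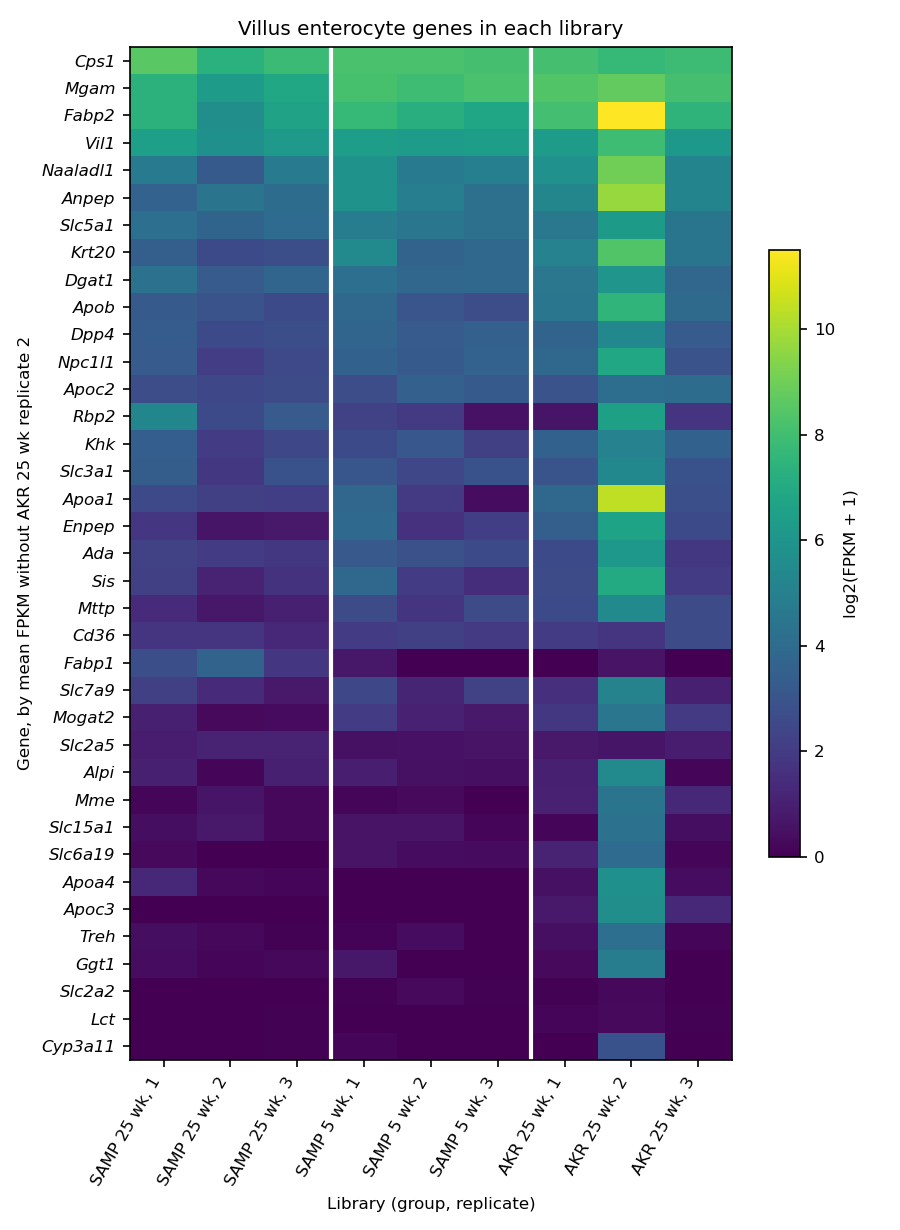
Level of each of the 37 members in each library as log2(FPKM + 1), with genes ordered by their mean over the 8 libraries without AKR 25 wk replicate 2 and white lines between the groups. AKR 25 wk replicate 2 is bright across most rows, with Fabp2 at 2911 FPKM, while Cps1, Mgam, Fabp2 and Vil1 at the top are high in every library.

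The excess of AKR 25 wk replicate 2 was uneven across the members. Its level over the mean of the other 8 libraries was at least 50-fold for 8 members, 10- to 50-fold for 15, 2- to 10-fold for 9 and under 2-fold for 5. The 8 at the top were Cyp3a11, a steroid- and drug-metabolizing cytochrome P450 at 262-fold, then Apoa1 at 230-fold, Apoc3 at 179-fold, Apoa4 at 175-fold, Ggt1 at 149-fold, Treh at 94.4-fold, Alpi at 72.3-fold and Slc15a1 at 51.7-fold. The 5 with little or no excess were Mgam at 1.91-fold, Cd36 at 0.792-fold, Cps1 at 0.769-fold, Slc2a5 at 0.740-fold and Fabp1 at 0.196-fold. These folds describe 1 library and have no replicate. Cyp3a11 belongs to a cluster of near-identical genes whose reads the counting could split, and it was at 0, 0 and 0.06 FPKM in SAMP 25 wk, at 0.14, 0 and 0 in SAMP 5 wk, and at 0, 6.54 and 0 in AKR 25 wk.

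**Figure D2:**
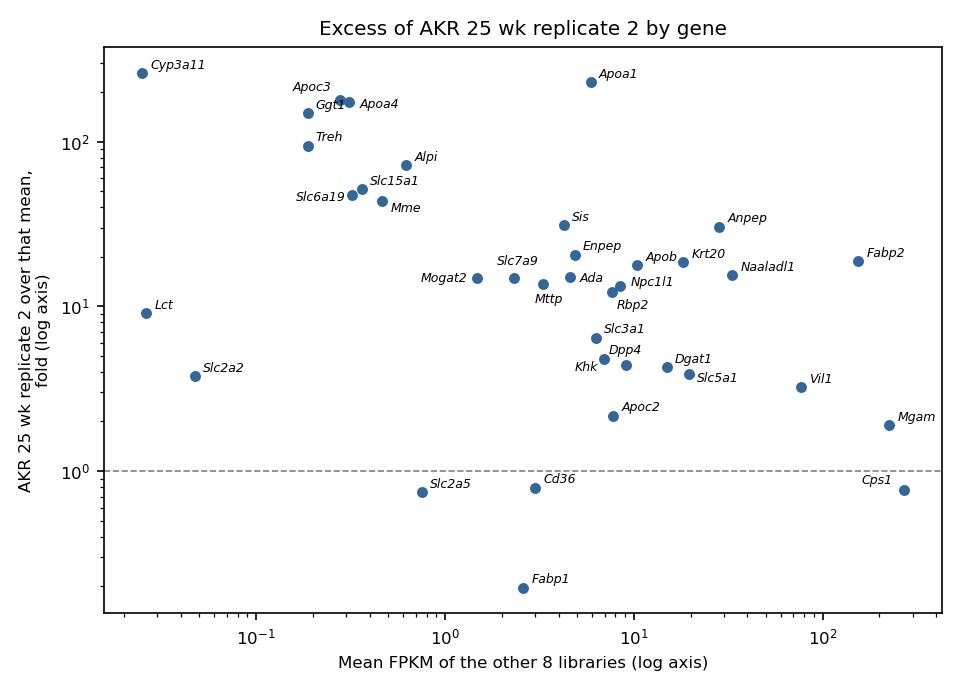
Fold of AKR 25 wk replicate 2 over the mean of the other 8 libraries (vertical, log axis) against that mean in FPKM (horizontal, log axis), 1 point per member. Most members lie above the dashed line of no difference, up to 262-fold for Cyp3a11, while Cd36, Cps1, Slc2a5 and Fabp1 lie under it.

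In the other 8 libraries a few members carried most of the signal. Mgam, Cps1, Vil1 and Fabp2 together held 72.2% to 82.3% of the summed member FPKM there, against 46.3% in AKR 25 wk replicate 2. Over pairs of the 33 tested members, the median Pearson r of log2(FPKM + 1) was 0.87 across the 9 libraries and 0.40 across the 8. Of the 528 pairs, 39.0% reached an r of 0.9 with all 9 libraries and 2.46% without AKR 25 wk replicate 2. These correlations are descriptions, since libraries of a group share strain, age and capture. Fabp1 had the lowest r with the mean of the other members, at -0.29 across 9 libraries and -0.57 across 8, and Cps1 and Cd36 came next in the 9, at -0.16 and -0.06. Fabp2, Mogat2 and Enpep had the highest r across the 8, at 0.93, 0.92 and 0.91.

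Promoter stretches are shown for some of the members named in the comparisons, and Mttp is not among them. Fabp1 and Mgam passed the test in opposite directions, Rbp2 was high in SAMP 25 wk and in AKR 25 wk replicate 2, and Fabp2 and Alpi were led by AKR 25 wk replicate 2. Each is the stretch of 150 bases before the start of the gene in RefSeq's annotation of GRCm38.p6, written 5′ to 3′ on the gene's strand. Capitals mark TTTATNG, a CDX-type word, in Fabp1, TATAAA, the TATA box, in Mgam, and CAAAGNNCA, a core of the HNF4-type direct repeat, in Rbp2, Fabp2 and Alpi, on either strand. Only 1 word is marked per gene. Other searched words in these stretches are unmarked, such as TTTATNG in Rbp2, Fabp2 and Alpi and TATAAA in Fabp1 and Rbp2.
Fabp1, chr6:71199729-71199878, plus strand: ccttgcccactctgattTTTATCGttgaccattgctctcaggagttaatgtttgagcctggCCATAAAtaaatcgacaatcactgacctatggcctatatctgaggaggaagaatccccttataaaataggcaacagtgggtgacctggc
Mgam, chr6:40628681-40628830, plus strand: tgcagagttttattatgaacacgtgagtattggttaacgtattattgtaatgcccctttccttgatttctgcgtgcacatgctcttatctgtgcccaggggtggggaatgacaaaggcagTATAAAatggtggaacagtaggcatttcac
Rbp2, chr9:98490387-98490536, plus strand: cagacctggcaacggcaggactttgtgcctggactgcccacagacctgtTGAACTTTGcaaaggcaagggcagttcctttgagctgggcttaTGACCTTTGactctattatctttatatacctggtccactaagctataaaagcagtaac
Fabp2, chr3:122894922-122895071, plus strand: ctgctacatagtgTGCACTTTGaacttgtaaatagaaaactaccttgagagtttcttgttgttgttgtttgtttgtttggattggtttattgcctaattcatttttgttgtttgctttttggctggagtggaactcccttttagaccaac
Alpi, chr1:87101607-87101756, minus strand: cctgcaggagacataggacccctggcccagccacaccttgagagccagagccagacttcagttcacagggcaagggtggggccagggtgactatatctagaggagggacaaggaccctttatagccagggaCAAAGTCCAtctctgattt
HNF4 and CDX proteins are transcription factors of the intestinal epithelium. The words were searched on both strands from 250 bases before to 50 after the start, in the 38 promoters that the table held for 32 members and in all 32851 promoters. CAAAGNNCA was in 12 member promoters (31.6%), against 6.36% of all promoters. These 12 belong to 11 members, since the same word was counted in overlapping promoters of Slc7a9. TTTATNG was in 10 (26.3%), against 10.9%, and TATAAA in 12 (31.6%), against 13.6%. AGATAA, read by the GATA factor family, was in 8 (21.1%), against 11.2%. GTTAATNA, most of an HNF1 palindrome, was in 4 (10.5%), against 2.54%, and the full palindrome in 0, against 0.00913%. TTTATNG can overlap TATAAA read on the other strand, as it does 33 bases before the start of Alpi. A match is a run of letters and not a bound site. Naaladl1, Cps1, Apoc3, Mogat2 and Dgat1 had no entry.

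In SAMP 25 wk against AKR 25 wk, Fabp1 was higher and Mgam lower. They were the only members past the threshold in the main fit, which held all 9 libraries. The threshold was an adjusted p of 0.05 in limma on log2(FPKM + 1), adjusted over all 11775 tested genes, and fold changes are on that scale. These were 2 of 33 members, where 2.94% of all tested genes passed. Fabp1 was 1 of 33 members higher, where 1.59% of all genes were, and Mgam 1 of 33 lower, where 1.35% were. Without AKR 25 wk replicate 2, 3 of 33 members passed, where 1.94% of all genes did. Fabp1 again was the single member higher (1.02% of all genes), and Mgam and Mttp were lower, 2 of 33 (0.917%). At an unadjusted p under 0.05 there were 19 of 33 members, where 15.5% of all genes passed, and 17 without AKR 25 wk replicate 2, where 13.2% did. The 3 libraries of SAMP 25 wk lay under all AKR 25 wk libraries for 16 of 33 members, where 12.6% of all genes did so. The count was also 16 without AKR 25 wk replicate 2, where 20.5% of all genes did so. They lay above all AKR 25 wk libraries for Fabp1 alone, where 6.6% of all genes did so, and for Fabp1 and Rbp2 without AKR 25 wk replicate 2, where 9.39% did. The median log2 fold change of the tested members was -1.49, beside -0.15 over all tested genes, and -0.67 beside -0.15 without AKR 25 wk replicate 2. Of the 33, 3 were above 0 with all 9 libraries and 7 without that one. Alpi, Apoa4, Ggt1, Slc15a1 and Slc7a9 turned to 0.16, 0.13, 0.12, 0.18 and 0.20 without it, with adjusted p of 0.857 to 0.921, and Cps1 to -0.08. The members that entered only through AKR 25 wk replicate 2 weigh on these counts and medians. Of the other 25, 14 lay under AKR 25 wk in both settings. In limma 16 of those 25 had an unadjusted p under 0.05, and 15 without that library. Their median log2 fold change was -1.49, and -0.75 without that library.

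Markers of other cell types moved in the same comparison, and their part in the members' results was not tested. Of 10 goblet cell markers, all measured above 0 in every library, 5 were higher and 3 lower. Without AKR 25 wk replicate 2 these were 4 and 2. Higher were Clca1, Spink4, Klk1, Spdef and Muc2, with log2 fold changes of 1.16 to 2.77. Zg16, Fcgbp and Tff3 were lower, at -5.94, -3.10 and -1.88. The 10 summed to 15074 to 19375 FPKM in SAMP 25 wk, against 4941 to 9855 in SAMP 5 wk. For AKR 25 wk the sum was 6716 to 9391, and 6716 and 6871 without replicate 2. Spink4 held most of the sum in SAMP 25 wk, at 10631, 14335 and 8933 FPKM. Its level was 1825 to 3936 FPKM in SAMP 5 wk, and 1699 to 2266 in AKR 25 wk. The higher sum rests largely on this gene. Of 9 tuft cell markers in the table, all above 0 in every library, 8 were higher and none lower (4 and none without AKR 25 wk replicate 2), and their sum was 61.0 to 68.9 FPKM in SAMP 25 wk, 17.4 to 28.7 in SAMP 5 wk, 13.6 to 21.98 in AKR 25 wk, and 17.9 and 21.98 there without replicate 2. The sum of 8 general epithelial genes was 1091 to 2414 FPKM in SAMP 25 wk, 2039 to 2726 in SAMP 5 wk, 1955 to 3935 in AKR 25 wk, and 1955 and 2377 there without replicate 2. None of these 8 passed the test. In SAMP 25 wk against AKR 25 wk, 7 of the 8 had a fold change below 0, with and without AKR 25 wk replicate 2. Their median log2 fold change was -0.55, and -0.30 without that library. At an unadjusted p under 0.05 in limma there were 4, where 15.5% of all genes passed. Without that library there were 0, where 13.2% did.

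**Figure D3:**
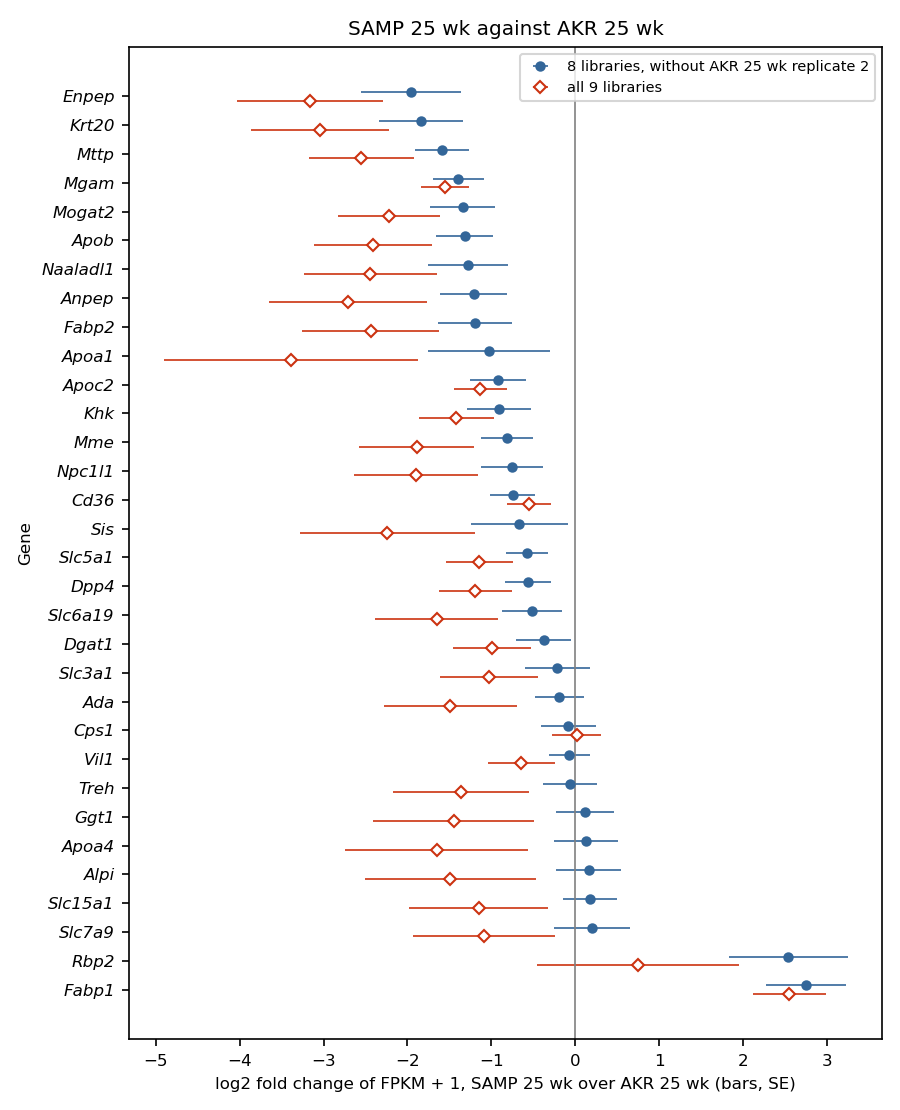
Log2 fold change of FPKM + 1 in SAMP 25 wk over AKR 25 wk for 32 tested members (Apoc3, listed at 0 in all SAMP libraries, is left out), with SE bars. Filled circles are the 8 libraries without AKR 25 wk replicate 2 and open diamonds all 9. The circles lie nearer 0 than the diamonds for most members, and Fabp1 and Rbp2 stand to the right with both. The circle of Fabp1 depends on the pseudocount, since its AKR libraries are then listed at 0.

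Fabp1, the liver-type fatty acid binding protein, carries long-chain fatty acids inside enterocytes and hepatocytes and lies at chr6:71199879-71205034. It was at 5.83, 11.9 and 2.48 FPKM in SAMP 25 wk, at 0.65, 0 and 0 in SAMP 5 wk, and at 0, 0.51 and 0 in AKR 25 wk. Every SAMP 25 wk library was above every other library, and AKR 25 wk was listed at 0 without replicate 2. Fabp1 entered the tests only through its levels in SAMP 25 wk, so its entry is not independent of the calls given here. By the estimated depth these levels correspond to 25, 44 and 10 reads in SAMP 25 wk and to 0 to 2 in the other libraries. Fabp1 had a log2 fold change of 2.55 ± 0.44 (SE) against AKR 25 wk, with an adjusted p of 0.00762 in limma. Without AKR 25 wk replicate 2 the adjusted p was 0.0117, and across 18 alternatives it ran from 0.00346 to 0.039. AKR 25 wk replicate 2, the library richest in Apoa1, Alpi and Sis, was at 0.51 FPKM. Fabp1 is also a liver gene, and the summed FPKM of 8 liver markers was 4.75 to 7.76 in SAMP 25 wk, 5.44 to 6.02 in SAMP 5 wk, 10.3 to 31.2 in AKR 25 wk, and 10.3 and 12.7 there without replicate 2. In SAMP 25 wk, Ttr was at 1.70 to 3.73 FPKM, Trf at 1.60 to 3.31, Serpina1a at 0.23 to 0.73, Tat at 0 to 1.25, Alb at 0 to 0.06 and Fga at 0 to 0.05, and Ahsg and Fgb were listed at 0. Serpina1a was listed at 0 in SAMP 5 wk and was at 0.79 to 2.93 FPKM in AKR 25 wk, and at 0.79 and 1.69 there without replicate 2. The part of liver RNA in the Fabp1 result was not tested.

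Fabp2, the intestinal-type fatty acid binding protein, was far more abundant. It was at 169, 51.3 and 98.8 FPKM in SAMP 25 wk, at 206, 147 and 113 in SAMP 5 wk, and at 269, 2911 and 178 in AKR 25 wk. The SAMP 25 wk libraries lay under the AKR 25 wk ones and overlapped SAMP 5 wk. Fabp2 had a log2 fold change of -2.44 ± 0.82 against AKR 25 wk, with an adjusted p of 0.162, and -1.20 ± 0.44 with 0.26 without replicate 2. Of these related fatty acid binding proteins, Fabp1 was higher in SAMP 25 wk and passed the test, and Fabp2 was lower in level and did not.

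Rbp2, the cellular retinol binding protein of the enterocyte, handles dietary vitamin A and lies at chr9:98490537-98509771. It was at 37.6, 4.98 and 8.99 FPKM in SAMP 25 wk, at 3.70, 2.93 and 0.47 in SAMP 5 wk, and at 0.55, 93.2 and 2.31 in AKR 25 wk. All 3 SAMP 25 wk libraries were above the others except AKR 25 wk replicate 2, which was the highest. Rbp2 had a log2 fold change of 0.75 ± 1.21 against AKR 25 wk, with an adjusted p of 0.809, and 2.54 ± 0.71 with 0.12 without replicate 2. It passed in neither, and its fold change was -0.42 without AKR 25 wk replicate 1 and -0.02 without SAMP 25 wk replicate 1.

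Cd36, a fatty acid translocase, and Npc1l1, the sterol uptake protein that ezetimibe blocks, are the other lipid uptake members. Cd36 was at 1.53 to 2.36 FPKM in SAMP 25 wk, at 2.84 to 3.58 in SAMP 5 wk, at 2.39 to 5.31 in AKR 25 wk, and at 3.14 and 5.31 there without replicate 2. Npc1l1 was at 3.28 to 8.89 FPKM in SAMP 25 wk, at 8.57 to 11.3 in SAMP 5 wk, at 6.58 to 113 in AKR 25 wk, and at 6.58 and 13.6 there without replicate 2. Cd36 was the one lipid uptake member besides Fabp1 whose level in AKR 25 wk replicate 2 lay under the mean of the other 8 libraries.

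**Figure D4:**
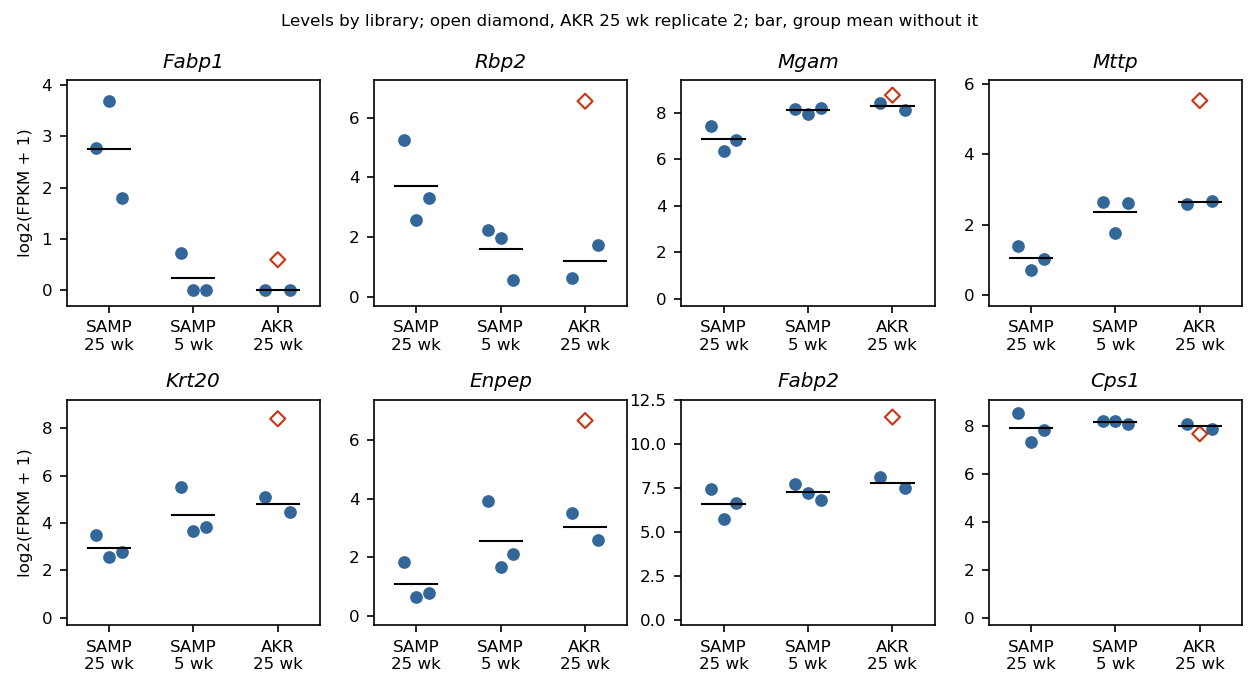
Levels of 8 members in each library as log2(FPKM + 1), by group. Filled circles are libraries, the open diamond is AKR 25 wk replicate 2 and bars are group means without it. Fabp1 is separate from both other groups in SAMP 25 wk, at 2.48 to 11.9 FPKM, and Mgam and Mttp lie under both.

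Chylomicron assembly was represented by 8 members, none past the threshold in the main fit of all 9 libraries. Mttp, the microsomal triglyceride transfer protein that loads lipid onto apolipoprotein B, lies at chr3:138089855-138143418. Mttp was at 1.63, 0.65 and 1.03 FPKM in SAMP 25 wk, at 5.29, 2.38 and 5.16 in SAMP 5 wk, and at 5.05, 45.0 and 5.33 in AKR 25 wk. All SAMP 25 wk libraries were under all others. Mttp had a log2 fold change of -2.55 ± 0.63 against AKR 25 wk, with an adjusted p of 0.052 in limma. That value was -1.58 ± 0.32 with 0.0315 without AKR 25 wk replicate 2, where Mttp passed, and the call was lost again at 0.0802 when SAMP 25 wk replicate 2 was left out too. Mttp passed in 7 of 19 alternatives and not in 12. Those passed included a pseudocount of 0.1 and TPM scaling with all 9 libraries, and the loss of AKR 25 wk replicate 1 or 3.

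Apob, the structural protein of chylomicrons, was at 8.54, 6.63 and 5.06 FPKM in SAMP 25 wk, at 13.4, 7.27 and 5.59 in SAMP 5 wk, and at 21.7, 184 and 14.9 in AKR 25 wk. AKR 25 wk was above both SAMP groups, which overlapped. Apob had a log2 fold change of -2.41 ± 0.70 in SAMP 25 wk against AKR 25 wk, with an adjusted p of 0.105, and -1.32 ± 0.34 with 0.0906 without replicate 2. Mogat2, the monoacylglycerol acyltransferase that rebuilds absorbed fat, was at 1.0, 0.23 and 0.28 FPKM in SAMP 25 wk, at 3.13, 1.05 and 0.73 in SAMP 5 wk, and at 2.60, 21.99 and 2.83 in AKR 25 wk. Its SAMP 25 wk libraries lay under AKR 25 wk and overlapped SAMP 5 wk. Mogat2 had a log2 fold change of -2.22 ± 0.61 against AKR 25 wk, with an adjusted p of 0.0855, and -1.34 ± 0.39 with 0.141 without replicate 2. It passed in limma in 1 of 18 alternatives, a pseudocount of 0.1, with an adjusted p of 0.0497. Dgat1, which completes triglyceride synthesis, was at 8.82 to 19.5 FPKM in SAMP 25 wk, at 12.9 to 17.7 in SAMP 5 wk, at 12.9 to 64.0 in AKR 25 wk, and at 12.9 and 22.3 there without replicate 2. The 3 groups overlapped for Dgat1.

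Apoa1, Apoc3 and Apoa4 lie side by side on chromosome 9, at chr9:46228630-46230469, chr9:46233050-46235636 and chr9:46240844-46243458, and had 3 of the 4 largest excesses in AKR 25 wk replicate 2. Apoa1 was at 4.78, 3.54 and 3.45 FPKM in SAMP 25 wk, at 13.1, 2.93 and 0.31 in SAMP 5 wk, and at 13.3, 1364 and 5.92 in AKR 25 wk. For Apoa1, SAMP 25 wk was under AKR 25 wk, and SAMP 5 wk spread across both. Apoa1 had a log2 fold change of -3.39 ± 1.51 in SAMP 25 wk against AKR 25 wk, with an adjusted p of 0.306, and -1.03 ± 0.73 with 0.604 without replicate 2. Apoc3, an inhibitor of lipoprotein lipase, was listed at 0 in all 6 SAMP libraries and was at 0.72, 50.2 and 1.52 FPKM in AKR 25 wk. By the estimated depth these AKR levels correspond to 3, 209 and 6 reads. Apoa4, secreted with chylomicrons, was at 1.44, 0.17 and 0.15 FPKM in SAMP 25 wk, was listed at 0 in SAMP 5 wk, and was at 0.42, 54.2 and 0.30 in AKR 25 wk. The low levels of Apoc3 and Apoa4 outside AKR 25 wk replicate 2 rest on few reads.

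Apoc2, the cofactor of lipoprotein lipase, was spread more evenly, at 5.49, 4.58 and 5.13 FPKM in SAMP 25 wk, at 5.59, 10.4 and 8.58 in SAMP 5 wk, and at 6.80, 16.9 and 15.7 in AKR 25 wk. All of SAMP 25 wk was under both other groups. Apoc2 had a log2 fold change of -1.13 ± 0.31 against AKR 25 wk, with an adjusted p of 0.0883, and -0.92 ± 0.33 with 0.255 without replicate 2.

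Among the disaccharidases, Mgam, maltase-glucoamylase, which splits starch fragments to glucose, was the one past the threshold. The gene lies at chr6:40628831-40769123. It was at 169, 81.2 and 113 FPKM in SAMP 25 wk, at 283, 246 and 292 in SAMP 5 wk, and at 337, 429 and 278 in AKR 25 wk. The SAMP 25 wk libraries were under all other libraries, and SAMP 5 wk and AKR 25 wk overlapped. Means were 121 ± 44.7 in SAMP 25 wk, 274 ± 24.7 in SAMP 5 wk and 348 ± 76.0 in AKR 25 wk (SD, n = 3 each), and 308 in AKR 25 wk without replicate 2. Mgam fell by 1.56 ± 0.29 on the log2 scale against AKR 25 wk, with an adjusted p of 0.0115 in limma, and by 1.39 ± 0.31 with 0.0458 without AKR 25 wk replicate 2. The adjusted p was 0.0591 without SAMP 25 wk replicate 3, the library with high Xist, and 0.0526 without AKR 25 wk replicate 1, so the call was lost in both. Over 19 alternatives it ran from 0.00109 to 0.0739.

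As a share of the summed FPKM of the 8 epithelial genes, a ratio chosen after the values were seen, Mgam was at 7.02%, 7.44% and 6.97% in SAMP 25 wk, at 10.4%, 12.1% and 13.6% in SAMP 5 wk, and at 14.2%, 10.9% and 14.2% in AKR 25 wk. The SAMP 25 wk libraries were again under all others. Vil1 was at 3.68% to 5.00% of that sum in SAMP 25 wk, at 3.16% to 3.90% in SAMP 5 wk, at 3.30% to 6.26% in AKR 25 wk, and at 3.30% and 3.57% there without replicate 2. Cps1 was at 14.3% to 15.5% in SAMP 25 wk, at 10.8% to 14.5% in SAMP 5 wk, at 5.24% to 12.1% in AKR 25 wk, and at 11.6% and 12.1% there without replicate 2. Mttp, at 0.0596% to 0.0675% in SAMP 25 wk against 0.117% or more elsewhere, and Krt20, at 0.363% to 0.453% in SAMP 25 wk against 0.566% or more elsewhere, also lay under every other library. Vil1, Cps1, Enpep, Fabp2 and Anpep did not, and Fabp1 lay above every other library. Enpep, at 0.0449% to 0.1065% in SAMP 25 wk, and Fabp2, at 4.70% to 6.99%, overlapped SAMP 5 wk. Anpep, at 0.474% to 1.87%, overlapped SAMP 5 wk and also AKR 25 wk, where it was at 1.605% or more.

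**Figure D5:**
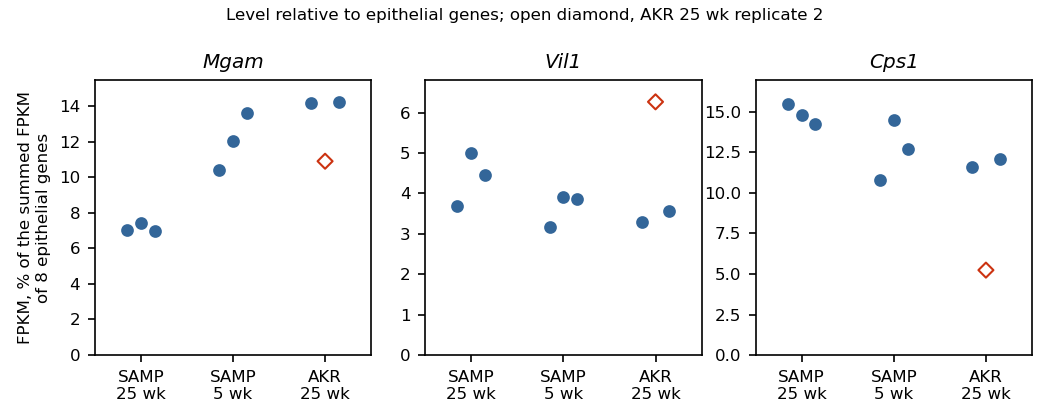
Mgam, Vil1 and Cps1 as a percentage of the summed FPKM of 8 general epithelial genes, in each library of the 3 groups. Open diamonds are AKR 25 wk replicate 2. Mgam is at 6.97% to 7.44% in SAMP 25 wk and at 10.4% or more in every other library.

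Sis was at 3.54, 1.22 and 2.23 FPKM in SAMP 25 wk, at 13.7, 3.13 and 1.86 in SAMP 5 wk, and at 5.32, 132 and 3.06 in AKR 25 wk. All 3 groups overlapped for this enzyme. Sis had a log2 fold change of -2.24 ± 1.04 in SAMP 25 wk against AKR 25 wk, with an adjusted p of 0.33, and -0.67 ± 0.58 with 0.67 without replicate 2. Treh, the brush border trehalase, was at 0.06 to 0.35 FPKM in SAMP 25 wk, at 0 to 0.30 in SAMP 5 wk and at 0.40, 17.7 and 0.12 in AKR 25 wk. Lct, the lactase of milk feeding, was at 0, 0 and 0.06 FPKM in SAMP 25 wk, was listed at 0 in all of SAMP 5 wk, and was at 0.11, 0.24 and 0.04 in AKR 25 wk. Lct stayed under 1 FPKM even in AKR 25 wk replicate 2. Mgam exceeded Sis in FPKM in all 9 libraries, including AKR 25 wk replicate 2.

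The sugar transporters differed in level from one another. Slc5a1, the sodium-coupled glucose transporter SGLT1 of the brush border, was at 17.3, 11.9 and 15.4 FPKM in SAMP 25 wk, at 28.2, 21.6 and 18.1 in SAMP 5 wk, and at 23.2, 76.1 and 21.4 in AKR 25 wk. Every SAMP 25 wk library was under all others for Slc5a1. Slc5a1 had a log2 fold change of -1.15 ± 0.40 against AKR 25 wk, with an adjusted p of 0.182, and -0.57 ± 0.25 with 0.36 without replicate 2. Slc2a2, the basolateral glucose transporter GLUT2, was at most 0.24 FPKM in any library, and was listed at 0 in all of SAMP 25 wk. Slc2a5, the fructose transporter GLUT5, was at 0.84 to 1.15 FPKM in SAMP 25 wk, at 0.42 to 0.51 in SAMP 5 wk, at 0.56 to 0.83 in AKR 25 wk, and at 0.70 and 0.83 there without replicate 2. Khk, ketohexokinase, which starts fructose breakdown, was at 9.82, 3.15 and 4.67 FPKM in SAMP 25 wk, at 4.97, 7.61 and 3.49 in SAMP 5 wk, and at 11.0, 33.3 and 10.8 in AKR 25 wk. Both SAMP groups lay under AKR 25 wk for Khk. Khk had a log2 fold change of -1.42 ± 0.45 in SAMP 25 wk against AKR 25 wk, with an adjusted p of 0.136, and -0.91 ± 0.38 with 0.339 without replicate 2.

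Of the 6 brush border peptidases, none passed the threshold in the main fit or without AKR 25 wk replicate 2. Anpep, aminopeptidase N, was at 11.5, 20.4 and 15.8 FPKM in SAMP 25 wk, at 57.0, 29.8 and 17.8 in SAMP 5 wk, and at 38.2, 862 and 36.0 in AKR 25 wk. SAMP 25 wk lay under AKR 25 wk and overlapped SAMP 5 wk. Anpep had a log2 fold change of -2.71 ± 0.94 against AKR 25 wk, with an adjusted p of 0.18, and -1.21 ± 0.40 with 0.204 without replicate 2. Enpep, glutamyl aminopeptidase, was at 2.57, 0.58 and 0.73 FPKM in SAMP 25 wk, at 14.2, 2.16 and 3.39 in SAMP 5 wk, and at 10.4, 100 and 5.04 in AKR 25 wk. Enpep had a log2 fold change of -3.16 ± 0.87 against AKR 25 wk, with an adjusted p of 0.0849, and -1.95 ± 0.59 with 0.162 without replicate 2. SAMP 25 wk was under AKR 25 wk and overlapped SAMP 5 wk for Enpep too. Naaladl1, a peptidase of the ileal brush border, was at 26.4, 8.43 and 24.9 FPKM in SAMP 25 wk, at 59.0, 24.7 and 30.1 in SAMP 5 wk, and at 55.7, 514 and 35.8 in AKR 25 wk. The SAMP 25 wk libraries were again under AKR 25 wk and overlapped SAMP 5 wk. Naaladl1 had a log2 fold change of -2.44 ± 0.79 against AKR 25 wk, with an adjusted p of 0.148, and -1.28 ± 0.48 with 0.267 without replicate 2.

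Dpp4, the proline-specific peptidase that also cleaves incretins, was at 9.28, 5.07 and 5.85 FPKM in SAMP 25 wk, at 12.6, 8.77 and 10.6 in SAMP 5 wk, and at 11.5, 40.1 and 8.85 in AKR 25 wk. SAMP 25 wk overlapped both other groups through replicate 1. Dpp4 had a log2 fold change of -1.19 ± 0.44 against AKR 25 wk, with an adjusted p of 0.206, and -0.56 ± 0.28 with 0.422 without replicate 2. Mme, neprilysin, was at 0.14, 0.58 and 0.17 FPKM in SAMP 25 wk, at 0.10, 0.23 and 0 in SAMP 5 wk, and at 1.08, 20.2 and 1.43 in AKR 25 wk, so every SAMP library was under every AKR library. Mme had a log2 fold change of -1.89 ± 0.69 in SAMP 25 wk against AKR 25 wk, with an adjusted p of 0.202, and -0.81 ± 0.31 with 0.288 without replicate 2. Ggt1, gamma-glutamyltransferase, was at 0.14 to 0.29 FPKM in SAMP 25 wk, at 0.65, 0 and 0 in SAMP 5 wk and at 0.23, 27.9 and 0 in AKR 25 wk.

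Peptide and amino acid carriers were low outside AKR 25 wk replicate 2. Slc15a1, the di- and tripeptide carrier PEPT1, was at 0.20 to 0.74 FPKM in SAMP 25 wk, at 0.10 to 0.51 in SAMP 5 wk and at 0.15, 18.8 and 0.35 in AKR 25 wk. Slc6a19, the neutral amino acid carrier B0AT1, was at 0 to 0.24 FPKM in SAMP 25 wk, at 0.25 to 0.54 in SAMP 5 wk and at 1.14, 15.2 and 0.10 in AKR 25 wk. The partners Slc3a1 and Slc7a9, which form the cystine and dibasic amino acid exchanger, were higher in level. Slc3a1 was at 2.63 to 9.48 FPKM in SAMP 25 wk, at 4.40 to 7.54 in SAMP 5 wk, at 6.37 to 40.7 in AKR 25 wk, and at 6.37 and 6.91 there without replicate 2. Slc7a9 was at 0.75 to 3.59 FPKM in SAMP 25 wk, at 1.25 to 4.59 in SAMP 5 wk, at 1.02 to 34.6 in AKR 25 wk, and at 1.02 and 1.92 there without replicate 2. None of the 4 passed the test, and SAMP 25 wk overlapped AKR 25 wk for each.

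The remaining members mark the differentiated enterocyte in other ways. Krt20, a keratin of differentiated villus cells, was at 10.1, 4.94 and 5.89 FPKM in SAMP 25 wk, at 45.1, 11.5 and 13.4 in SAMP 5 wk, and at 33.7, 336 and 20.9 in AKR 25 wk. The Krt20 levels of SAMP 25 wk were under those of all other libraries. Krt20 had a log2 fold change of -3.04 ± 0.82 against AKR 25 wk, with an adjusted p of 0.079, and -1.84 ± 0.50 with 0.108 without replicate 2. Vil1, villin, which bundles actin in microvilli, was at 88.8, 54.5 and 72.3 FPKM in SAMP 25 wk, at 86.2, 79.5 and 82.7 in SAMP 5 wk, and at 78.4, 247 and 69.8 in AKR 25 wk. Vil1 had a log2 fold change of -0.64 ± 0.40 against AKR 25 wk, with an adjusted p of 0.468, and -0.07 ± 0.25 with 0.935 without replicate 2. All 3 groups overlapped for Vil1, and without AKR 25 wk replicate 2 SAMP 5 wk lay above AKR 25 wk.

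Cps1, carbamoyl phosphate synthetase, the first enzyme of the urea cycle, was at 374, 162 and 232 FPKM in SAMP 25 wk, at 295, 296 and 273 in SAMP 5 wk, and at 276, 206 and 236 in AKR 25 wk. Over the 8 libraries without AKR 25 wk replicate 2 its mean was the highest of the members, at 268 FPKM against 225 for Mgam. In the other AKR 25 wk libraries and in SAMP 5 wk replicate 3, Mgam was the higher. For Cps1, AKR 25 wk replicate 2 was no higher than the others of its group. Cps1 had a log2 fold change of 0.02 ± 0.29 against AKR 25 wk, with an adjusted p of 0.983, and -0.08 ± 0.33 with 0.942 without replicate 2. Ada, adenosine deaminase, was at 3.73, 2.94 and 2.65 FPKM in SAMP 25 wk, at 8.4, 6.31 and 4.98 in SAMP 5 wk, and at 5.0, 68.4 and 2.61 in AKR 25 wk. Ada was lower in level in all of SAMP 25 wk than in SAMP 5 wk, and SAMP 25 wk overlapped AKR 25 wk. Alpi was at 1.02, 0.12 and 1.01 FPKM in SAMP 25 wk, at 0.94, 0.42 and 0.39 in SAMP 5 wk, and at 0.99, 45.1 and 0.10 in AKR 25 wk, and the 3 groups overlapped.

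SAMP 25 wk against SAMP 5 wk compares mice of 1 strain with ileitis and without, at different ages. AKR 25 wk replicate 2 enters through the pooled spread and through the filter that chose the tested genes. Of the members, Fabp1 passed that filter only through SAMP 25 wk. Fabp1 was higher, with a log2 fold change of 2.51 ± 0.44 and an adjusted p of 0.014 in limma, and was the 1 member of 33 past the threshold, where 1.52% of all genes passed and 0.909% were higher. No member was lower, where 0.611% of all genes were. With AKR 25 wk replicate 2 left out 3 members passed (2.23% of all genes): Fabp1 was again the member higher (1.3% of all genes), and Mgam and Mttp were lower (0.926%). At an unadjusted p under 0.05 there were 2 members with all 9 libraries and 12 without that library, where 16.5% and 17.8% of all genes passed. Leaving out SAMP 25 wk replicate 2, SAMP 5 wk replicate 2 or SAMP 5 wk replicate 3 ended the Fabp1 call, at adjusted p of 0.0643, 0.0678 and 0.0604.

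Mgam differed from SAMP 5 wk by -1.23 ± 0.29 on the log2 scale, with an adjusted p of 0.0594, and by the same value ± 0.28 with 0.0467 without AKR 25 wk replicate 2. Mttp differed by -1.30 ± 0.63 with an adjusted p of 0.33, and by the same value ± 0.29 with 0.0456 without that library. Rbp2 had a log2 fold change of 2.14 ± 1.21 with an adjusted p of 0.408, and ± 0.63 with 0.117 without it. Krt20 and Enpep, at -1.40 and -1.48, did not pass, with adjusted p of 0.424 for both, and 0.142 and 0.192 without that library. SAMP 25 wk lay wholly under SAMP 5 wk for 8 members, Apoc2, Slc5a1, Mttp, Mgam, Cd36, Slc6a19, Ada and Krt20, where 12.3% of all genes did so. It lay wholly above for Fabp1, Rbp2 and Apoa4, where 7.95% of all genes did so. Slc6a19 and Apoa4 had entered the test only through AKR 25 wk replicate 2. Of the other 25 members, 7 lay wholly under and 2 wholly above. The median log2 fold change of the tested members was -0.34, beside -0.12 over all genes. For the 25 members that passed the filter without AKR 25 wk replicate 2 it was -0.57, with 21 of them below 0. In this comparison 4 of 10 goblet markers were higher and 2 lower, and 4 of 9 tuft markers were higher, and their part in these values was not tested.

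SAMP 5 wk against AKR 25 wk compares uninflamed mice of the 2 strains at different ages. No member passed in limma, with all 9 libraries (0.552% of all genes) or without AKR 25 wk replicate 2 (0.425%). At an unadjusted p under 0.05 there were 6 of 33 members, where 7.47% of all genes passed, and 5 without that library, where 6.5% did. Of the 25 members that passed the filter without AKR 25 wk replicate 2, these were 4 and 3. The median log2 fold change of the tested members was -1.38 beside -0.03 over all genes, and -0.18 beside -0.02 without that library. For those 25 members it was -1.05, and -0.22 without that library. Of the 33, 2 were above 0 with all 9 libraries and 12 without that one. SAMP 5 wk lay wholly under AKR 25 wk for Apoa4, Apob, Apoc3, Mme and Khk, 5 of 33, where 8.33% of all genes did so, and for the same 5 without that library, where 14.9% did. Apoa4, Apoc3 and Mme had entered the test only through AKR 25 wk replicate 2, and of the other 25 members 2 lay wholly under, in both settings. None lay wholly above, where 6.11% of all genes did so, other than Vil1 without that library, where 10.3% did. Apoa1 had the most negative log2 fold change, -3.62 ± 1.51 with an adjusted p of 0.603, and -1.25 ± 0.73 with 0.893 without AKR 25 wk replicate 2. Khk had a log2 fold change of -1.47 ± 0.45 with an adjusted p of 0.337, and -0.96 ± 0.38 with 0.673 without it. Mgam had -0.33 ± 0.29 with an adjusted p of 0.894, and -0.16 ± 0.31 with 0.985 without it.

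Related genes that are no members were counted from lists. Of 21 tested genes of chylomicron and lipid handling, Clps, pancreatic colipase, and Scarb1, a lipoprotein receptor, were higher in SAMP 25 wk than in AKR 25 wk, and Abcg8, a sterol exporter, and Soat2, which esterifies cholesterol, were lower. Clps and Abcg8 also passed without AKR 25 wk replicate 2, with log2 fold changes of 3.30 ± 0.33 (adjusted p 0.000287) and -1.46 ± 0.32 (adjusted p 0.0425) in limma. Scarb1 and Soat2 had log2 fold changes of 1.59 ± 0.32 and -1.20 ± 0.29, with adjusted p of 0.0197 and 0.0491 with all 9 libraries. Clps was at 3710, 5458 and 3555 FPKM in SAMP 25 wk, at 524, 500 and 395 in SAMP 5 wk, and at 351, 219 and 504 in AKR 25 wk. Abcg8 was at 0.54, 0.67 and 0.81 FPKM in SAMP 25 wk, at 1.02, 3.07 and 1.78 in SAMP 5 wk, and at 4.05, 14.5 and 3.18 in AKR 25 wk. Against SAMP 5 wk, Clps was the 1 gene of this list past the threshold, and Abcg5, the partner of Abcg8, was lower without AKR 25 wk replicate 2 and not with it.

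Of 16 tested transcription factors of the enterocyte, Cdx1, Isx and Prdm1 were lower in SAMP 25 wk than in AKR 25 wk, and none passed without AKR 25 wk replicate 2. Cdx1, an intestinal homeobox factor, was at 40.02, 37.8 and 48.9 FPKM in SAMP 25 wk, at 61.2, 52.5 and 55.3 in SAMP 5 wk, and at 79.3, 81.0 and 70.8 in AKR 25 wk. Isx, which restrains vitamin A uptake, was at 27.2, 7.81 and 13.6 FPKM in SAMP 25 wk, at 42.0, 30.3 and 46.3 in SAMP 5 wk, and at 35.4, 60.6 and 41.2 in AKR 25 wk. The Cdx1 fold change was -0.86 ± 0.19 with an adjusted p of 0.0344, and -0.82 ± 0.22 with 0.101 without AKR 25 wk replicate 2. For Isx it was -1.57 ± 0.37 with 0.0436, and -1.35 ± 0.40 with 0.153. Prdm1, which holds the young enterocyte in its suckling state, was at 1.03, 0.71 and 0.93 FPKM in SAMP 25 wk, at 3.03, 2.09 and 1.96 in SAMP 5 wk, and at 2.95, 3.64 and 2.52 in AKR 25 wk. SAMP 25 wk was under both other groups for Prdm1, Cdx1 and Isx. Against SAMP 5 wk none passed with all 9 libraries, and Klf4, a factor of differentiated epithelium, was higher without AKR 25 wk replicate 2, with a log2 fold change of 0.85 ± 0.18 and an adjusted p of 0.0357. Hnf4a, a transcription factor of enterocyte genes, was at 71.0 to 133 FPKM in SAMP 25 wk, at 122 to 134 in SAMP 5 wk, at 135 to 187 in AKR 25 wk, and at 135 and 138 there without replicate 2.

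Few genes of the other lists passed. None of 15 tested brush border genes passed in any comparison, with or without AKR 25 wk replicate 2, and Tmigd1 and Mep1b had the most negative fold changes against AKR 25 wk, at -2.51 ± 1.03 and -2.27 ± 0.91 with adjusted p of 0.269 and 0.257 in limma. Without AKR 25 wk replicate 2, where Tmigd1 was at 64.9 FPKM against 1.12 and 1.0 in the other AKR libraries, these were -0.84 ± 0.41 and -0.92 ± 0.54 with 0.423 and 0.516. At an unadjusted p under 0.05 there were 7 of the 15 against AKR 25 wk (15.5% of all genes) and 3 without that library (13.2%). Against SAMP 5 wk there were 1 (16.5%) and 2 (17.8%). SAMP 5 wk against AKR 25 wk had 5 (7.47%) and 2 (6.5%). Of 18 transporters of amino acids, nucleosides and vitamins, Slc16a10, an aromatic amino acid carrier, was lower in SAMP 25 wk, at 4.01, 3.75 and 3.81 FPKM, than in AKR 25 wk, at 6.86, 7.4 and 8.97, with none past the threshold without replicate 2. Of 11 peptidases and sugar enzymes, Ckb, brain-type creatine kinase, was higher in SAMP 25 wk in both comparisons, at 44.3, 32.3 and 25.8 FPKM, against 9.52, 11.1 and 9.40 in SAMP 5 wk and 12.04, 11.1 and 15.03 in AKR 25 wk. Of 9 urea cycle and arginine enzymes, Oat, ornithine aminotransferase, and Otc, the urea cycle's transcarbamylase, were lower in SAMP 25 wk than in AKR 25 wk, and neither passed without replicate 2, where their adjusted p were 0.102 and 0.121. Of 18 genes that mark zones from villus base to tip, Ccl25, an epithelial chemokine, was lower in SAMP 25 wk, at 74.1, 35.3 and 46.1 FPKM, than in AKR 25 wk, at 167, 435 and 128, with an adjusted p of 0.0256, and 0.0547 without replicate 2.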

How the data were processed

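The 9 libraries, 3 per group, were grouped by labelled strain and age, and replicate numbers follow sample order and pair nothing. The series text calls the samples of a group biological replicates. The labels also mention cultured crypts without saying how those relate to the captured tissue. The submitters' processing notes name Trimmomatic, STAR, HTSeq, DESeq2 and GRCm38, without versions or order. The program behind the deposited values, the strandedness and the read length are not given in the sources used here.

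FPKM values were deposited by the authors for 18220 NCBI gene numbers, per the file headers. RefSeq's annotation of GRCm38.p6 named 18155 of them and supplied promoters and coordinates. No count model was used, because FPKM is not a count. Reads per library were inferred for genes with 1 transcript, 50 bp shorter than annotated, from the spacing of their lowest values. In each library 81.8% to 86.2% of such values came within 0.2 of a whole read, where randomness gives 40%. The reads printed are therefore estimates, and their precision covers counting error only.

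Tests covered the 11775 genes with a mean of at least 1 FPKM over 9 libraries. The scale was log2(FPKM + 1), on which fold changes of low genes are understated. One two-sided limma fit (limma 3.58.1, R 4.3.3) held the 3 group means, with a variance trend and Benjamini-Hochberg adjustment over all tested genes at 0.05. The fit without AKR 25 wk replicate 2 kept the same genes. Errors are SE for fold changes and SD for FPKM. The fit was tested on simulated data first. It recovered 28% to 30% of changes of 1 on the log2 scale and 83% to 85% of changes of 2. The changed genes were drawn at random from all tested genes, so these shares need not hold for the members. With all 9 libraries, the SE of a member reached 1.51, for Apoa1. A gene that did not pass may therefore still have changed.

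The members, lists, motifs and tests were chosen with earlier results of these data known. Values by library are given for members past the threshold, for a fixed set of members whatever they showed, and for the 5 members with the largest fold change of each comparison. Other lists are represented by their genes past the threshold, or else the 2 with the largest fold change. Hnf4a, Olfm4, Abcg5 and Lyz1 were picked after their values were seen. The 8 general epithelial genes were Epcam, Krt8, Krt18, Krt19, Cdh1, Cldn7, Cldn3 and Tspan8. Figures were drawn in Python 3.11.15 by matplotlib 3.10.9 from pandas 2.3.3 tables. The settings varied were the pseudocount (0.1, 5), the filter (none, or a mean of 5 FPKM), TPM scaling, quantile normalization, a fit of the compared groups alone, and single libraries left out. Another 3 settings, which combine the loss of AKR 25 wk replicate 2 with a further change, were added after the data were seen.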

Additional observations from a re-analysis of the deposited data

How the results depend on the processing

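No paired analysis was possible because the labels give no replicate numbers that join samples of different groups. Fabp1 against AKR 25 wk kept its call in 18 of 18 alternatives and was not tested at a mean of at least 5 FPKM, which left 0 members higher there and against SAMP 5 wk. Against SAMP 5 wk it held in 13 of 18, with 0 members higher at a pseudocount of 0.1 and with no filter. Mgam against AKR 25 wk held in 15 of 19. The number of members lower against AKR 25 wk was 3 at a pseudocount of 0.1 and 2 with TPM, and it ran from 0 to 5 with single libraries left out. Without AKR 25 wk replicate 2, it was 0 when SAMP 25 wk replicate 2 was left out too, 4 when SAMP 5 wk replicate 1 was, and 4 with quantile normalization. The number of genes past the threshold there was 182 without AKR 25 wk replicate 2 and SAMP 25 wk replicate 2, and 186 to 492 with single libraries left out (186 and 188 without SAMP 25 wk replicates 2 and 3, 188 and 228 without AKR 25 wk replicates 1 and 2). Against SAMP 5 wk, members lower were 1 with quantile normalization, 2 with that and AKR 25 wk replicate 2 left out, and 0 to 2 with single libraries left out, and members higher 0 to 1. Genes past the threshold there were 99 with no filter, 300 with quantile normalization, 442 with that and AKR 25 wk replicate 2 left out, and 82 to 528 with single libraries left out (528, 82 and 105 without SAMP 25 wk replicates 1, 2 and 3, and 86 and 95 without SAMP 5 wk replicates 2 and 3). For SAMP 5 wk against AKR 25 wk, the members' median ran from -1.92 to -0.18 with single libraries left out, and was -0.18, -0.27 and -0.22 in the 3 added alternatives, with 36 to 70 genes past the threshold. The cause was not tested, other than fewer genes or samples by construction.

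Members of SAMP 25 wk against AKR 25 wk that turned sign did not pass. Without AKR 25 wk replicate 2, Alpi, Apoa4, Ggt1, Slc15a1 and Slc7a9 turned to 0.12 to 0.20. Cps1 was -0.10 with TPM, and with libraries left out it ran from -0.29 (without SAMP 25 wk replicate 1) to 0.31, at -0.08 without AKR 25 wk replicate 2, also with SAMP 5 wk replicate 1 left out. Rbp2 ran from -0.42 (without AKR 25 wk replicate 1) to 3.12, and was -0.02 without SAMP 25 wk replicate 1. Vil1 ran from -0.97 to 0.11 (without AKR 25 wk replicate 2 and SAMP 25 wk replicate 2), and was 0.088 without AKR 25 wk replicate 2 and with quantile normalization. Members listed at or near 0, such as Apoc3 in the SAMP groups, are limited by an estimated depth of 7000000 to 10260000 reads. The fits without AKR 25 wk replicate 2 leave 2 AKR libraries.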

Other observations

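The genes most like the members were given by the Pearson r of their log2(FPKM + 1) with the mean member value, over tested genes that are no members. Across the 9 libraries the highest r were 0.99 for Mpp1, 0.99 for Xpnpep2 and 0.99 for Tmigd1, and Slc10a2, the ileal bile acid transporter, had 0.98. Slc10a2 was at 0.66, 0 and 0 FPKM in SAMP 25 wk, at 0.82, 0.46 and 0 in SAMP 5 wk, and at 0.21, 25.9 and 0.38 in AKR 25 wk. Across the 8 libraries without AKR 25 wk replicate 2 the highest r were 0.99 for Ndfip2, 0.99 for Slc25a15 and 0.98 for Ugt2b5. Tmigd1, Xpnpep2 and Slc10a2 were highest in AKR 25 wk replicate 2, at 64.9, 48.6 and 25.9 FPKM. Their r across the 9 libraries rest largely on that library. No gene given for the 9 libraries was among the highest across the 8. All these r describe libraries that share groups.

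Lists of other cell types were counted in the same fits, with AKR 25 wk replicate 2 included unless named. Of 10 Paneth cell genes, Ang4, an antimicrobial angiogenin, and Mptx2, a mucosal pentraxin, were higher in SAMP 25 wk than in AKR 25 wk. Ang4 was also higher in SAMP 25 wk than in SAMP 5 wk, and Mptx2 was higher in SAMP 5 wk than in AKR 25 wk, and each passed without AKR 25 wk replicate 2 as well. Ang4 was at 11368, 16447 and 10472 FPKM in SAMP 25 wk, at 2659, 1262 and 1499 in SAMP 5 wk, and at 1083, 555 and 1420 in AKR 25 wk. Mptx2 was at 4582, 11156 and 4244 FPKM in SAMP 25 wk, at 3470, 2739 and 2467 in SAMP 5 wk, and at 239, 161 and 234 in AKR 25 wk. Lyz1, the Paneth cell lysozyme, went the other way and was the 1 gene of this list below 0 against AKR 25 wk. It was at 8021, 9141 and 5435 FPKM in SAMP 25 wk and at 25857, 24396 and 20238 in SAMP 5 wk. In AKR 25 wk it was at 26581, 15074 and 36165. Its log2 fold change was -1.73 ± 0.44 against AKR 25 wk and -1.67 ± 0.44 against SAMP 5 wk, with adjusted p of 0.0642 and 0.0934 in limma. Of 10 macrophage and dendritic cell genes, Cd68, Fcer1g and Itgam were lower in SAMP 25 wk than in AKR 25 wk, and Fcer1g and Itgam were lower than in SAMP 5 wk. Itgam, an integrin of myeloid cells, was at 4.79, 3.14 and 3.99 FPKM in SAMP 25 wk, at 11.5, 11.9 and 16.1 in SAMP 5 wk, and at 11.2, 12.4 and 8.34 in AKR 25 wk. Of 10 enteroendocrine genes, Chgb was higher in SAMP 25 wk than in AKR 25 wk (Pyy and not Chgb without AKR 25 wk replicate 2), and Tac1 was lower than in SAMP 5 wk. Of 5 red cell and endothelial genes, Hbb-bs was lower in SAMP 25 wk than in SAMP 5 wk, and of 8 suckling-type enterocyte genes Prdm1 was lower in SAMP 25 wk than in AKR 25 wk, which did not hold without AKR 25 wk replicate 2. None of 12 stem cell, 12 cycling cell, 12 smooth muscle and fibroblast, 6 T cell and 3 liver genes passed in limma with all 9 libraries. At an unadjusted p under 0.05 in SAMP 25 wk against AKR 25 wk there were 2 stem cell, 1 cycling cell, 4 smooth muscle and fibroblast, 2 T cell and 1 liver gene. The share over all tested genes was 15.5%. Against SAMP 5 wk, where 16.5% of all genes passed so, there were 3 stem cell genes, 11 cycling cell genes and 5 smooth muscle and fibroblast genes, and none of the other 2 lists. Without AKR 25 wk replicate 2 these were 5, 9 and 7, where 17.8% of all genes passed. All 12 cycling cell genes had a fold change below 0 in SAMP 25 wk against SAMP 5 wk, with a median of -0.77, and 8 of the 12 stem cell genes did, with a median of -0.12. In the 8 libraries without AKR 25 wk replicate 2, Sox9, a stem cell list gene, was higher and Lum, a fibroblast gene, lower in SAMP 25 wk than in SAMP 5 wk.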
